A study of Mus musculus with 6 samples.

Results

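The genes described here are the long intergenic noncoding RNA (lincRNA) genes that were expressed in B16F10, a line of mouse melanoma cells that make pigment. A gene was taken when the deposited annotation gave it the biotype lincRNA and its mean over all 6 libraries was at least 1 CPM (counts per 1e6 counts of the library). This gave 214 genes, out of 5647 annotated as lincRNA and 54838 genes in all. The members were thus chosen by their mean CPM, and levels and ranks below are a description. The comparison of treatment groups did not enter the choice. RNA was sequenced from 3 libraries of cells given the vehicle DMSO and 3 of cells given GSK126 at 10 µM. GSK126 inhibits EZH2, the enzyme of Polycomb repressive complex 2 that methylates lysine 27 of histone H3, and the series title asks about lipid metabolism and sensitivity to such an inhibitor. Both groups are the same cell line, and the labels name no genetic change in either. How long the cells were treated and whether replicates were separate cultures are not stated in the labels. The p-values therefore describe the scatter among these 6 libraries, part of which may be technical.

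lincRNAs are RNA polymerase II transcripts that lie between protein-coding genes and are mostly spliced and polyadenylated like messenger RNAs, without a long open reading frame. Some act as RNA in the nucleus: Malat1 accumulates in nuclear speckles and Neat1 builds paraspeckles. Others sponge or degrade regulators in the cytoplasm, as Norad does for Pumilio proteins and Cyrano for a microRNA, and others again are precursors of microRNAs or small nucleolar RNAs (snoRNAs). Polycomb repressive complex 2 binds many RNAs and marks the promoters of some lincRNA genes.

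Library totals ran from 13594939 to 14713373 counts. Melanoma markers summed to between 21209 and 23830 CPM per library, whereas fibroblast markers summed to at most 2.72 CPM, leukocyte markers to at most 4.44 CPM, endothelial markers to at most 0.702 CPM and keratinocyte markers to at most 0.142 CPM. GSK126 replicate 3 stood apart, with 1.20% of its counts in ribosomal protein genes against 1.42% to 1.53% in the other 5 libraries. These genes are the 99 protein-coding genes whose symbol starts with Rpl or Rps and a digit. Such a match by symbol also takes in kinase genes named after Rps6 and misses genes such as Rpsa.

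The promoters of 4 members are shown because these had the 2 largest falls and the 2 largest rises among members past the test with a RefSeq start within 1 kb of the start in the tables. Each run is the reference sequence from 250 bases before to 50 bases after the RefSeq start (GRCm38.p6, 5′ to 3′ on the gene's strand). Capitals mark matches on either strand to the TATA box core TATAAA, to the GC box GGGCGG bound by Sp1, to TGACG from the cyclic AMP response element, or to ACGTG as found in E-boxes and hypoxia response elements. The promoter of Gm17501 is chr3:145649827-145650126 on the plus strand, that of Snhg20 is chr11:117076533-117076832 on the plus strand, that of Gm34425 is chr9:120869711-120870010 on the plus strand and that of Gm19385 is chr9:120866496-120866795 on the minus strand.
Gm17501: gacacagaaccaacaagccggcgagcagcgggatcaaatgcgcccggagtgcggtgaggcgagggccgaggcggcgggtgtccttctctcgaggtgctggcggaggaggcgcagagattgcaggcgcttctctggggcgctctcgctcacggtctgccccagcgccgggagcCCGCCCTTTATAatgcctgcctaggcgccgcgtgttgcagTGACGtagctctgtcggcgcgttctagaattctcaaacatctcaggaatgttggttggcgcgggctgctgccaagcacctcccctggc
Snhg20: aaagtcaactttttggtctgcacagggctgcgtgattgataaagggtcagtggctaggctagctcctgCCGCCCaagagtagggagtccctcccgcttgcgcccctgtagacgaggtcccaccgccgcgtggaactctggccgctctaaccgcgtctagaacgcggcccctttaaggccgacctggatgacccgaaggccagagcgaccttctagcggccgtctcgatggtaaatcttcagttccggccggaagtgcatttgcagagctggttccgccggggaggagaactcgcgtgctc
Gm34425: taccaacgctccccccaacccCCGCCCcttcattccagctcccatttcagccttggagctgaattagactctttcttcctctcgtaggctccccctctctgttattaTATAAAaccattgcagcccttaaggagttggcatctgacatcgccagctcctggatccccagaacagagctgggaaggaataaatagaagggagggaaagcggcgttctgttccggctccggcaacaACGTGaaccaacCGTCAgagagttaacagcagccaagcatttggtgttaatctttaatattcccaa
Gm19385: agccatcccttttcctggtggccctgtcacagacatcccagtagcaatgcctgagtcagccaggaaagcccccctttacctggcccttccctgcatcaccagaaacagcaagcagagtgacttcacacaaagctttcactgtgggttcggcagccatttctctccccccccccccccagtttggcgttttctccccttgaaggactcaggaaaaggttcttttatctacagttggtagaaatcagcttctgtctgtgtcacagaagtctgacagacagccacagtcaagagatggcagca
The window of Gm17501 holds a TATAAA match directly beside a GGGCGG match, both on the opposite strand, and a TGACG. The Snhg20 window holds a GGGCGG match only, and the Gm19385 window holds none of these motifs. Gm34425 has a match to each of the 4. Promoter windows could be matched for 117 members, 11 of them past the test described below. TATAAA occurred in 19.7% of the 117 windows and in 6 of the 11, against 13.6% of all 32817 RefSeq promoter windows of the same length. GGGCGG occurred in 42.7% of the member windows and in 5 of the 11, against 35.6% of all windows, and TGACG in 29.1% and in 2 of the 11, against 20.8%. ACGTG was found in 23.9% of the member windows and in 2 of the 11, against 19.6% of all. Median GC content was 54.3% in the member windows and 52.7% in all.

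A group of 12 members spans annotated microRNA genes, 21 such genes in all. The mature sequences below (RefSeq, GRCm38.p6) belong to hosts that passed the test or had a library with 0 reads, plus a pair from the Mir17hg cluster that share a seed. Capitals mark the seed, bases 2 to 8.
mmu-miR-670-5p: aUCCCUGAguguauguggugaa
mmu-miR-129-5p: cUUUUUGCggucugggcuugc
mmu-miR-6516-5p: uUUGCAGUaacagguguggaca
mmu-miR-31-5p: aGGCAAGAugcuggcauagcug
mmu-miR-675-5p: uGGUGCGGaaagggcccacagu
mmu-miR-17-5p: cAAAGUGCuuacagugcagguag
mmu-miR-20a-5p: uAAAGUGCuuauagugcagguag
miR-670-5p lies in Mir670hg, miR-6516-5p in Snhg20, miR-31-5p in AL805899.1 and miR-675-5p in H19. miR-129-5p is encoded in both Mir670hg (Mir129-2) and Gm3294 (Mir129-1), so the same mature sequence has precursors in a pair of members. miR-17-5p and miR-20a-5p share the seed AAAGUGC. These libraries were not made from small RNA, so host reads do not measure the mature microRNAs.

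Abundance was steeply graded. The members held 0.293% ± 0.00693 of library counts in DMSO and 0.284% ± 0.00967 in GSK126 (mean ± SD, n = 3), a difference of -0.00891 percentage points, and the ranges of the groups overlapped. Leaving out GSK126 replicate 1 made the difference -0.0143, leaving out GSK126 replicate 3 made it -0.00505, and leaving out the most abundant member made it -0.00353. In bulk RNA, fewer cells with a transcript and less transcript per cell cannot be told apart. The most abundant member held 17.3% of all member reads, the first 4 held 44.7% and the first 10 held 60.5%. Only 6 members reached 100 CPM and 41 reached 10 CPM, while 74 lay under 2 CPM. The median member had 3.17 CPM and 1.40 FPKM (CPM divided by the gene length in kilobases), against 37.7 CPM and 5.50 FPKM for the 11343 protein-coding genes at 1 CPM or more. The gene length implied by counts and FPKM had a median of 3013 bp for members against 6621 bp for these coding genes. It was within 1% of the exon length in GENCODE M21 for only 96 of the 214 members, so the length comparison is uncertain. Member genes were also simpler, with a single exon block in 18.7% against 2.55%.

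**Figure D1:**
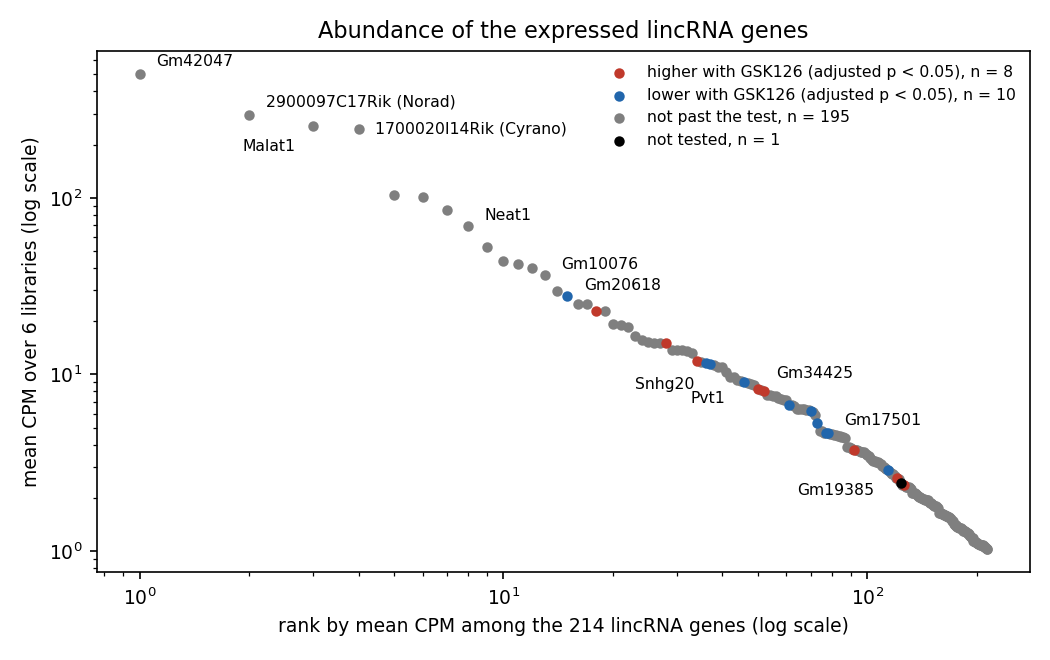
Mean CPM over 6 libraries (log scale) against rank among the 214 lincRNA genes (log scale), each point a gene, coloured by the result of the edgeR test of GSK126 against DMSO. The first 4 genes hold 44.7% of all member reads, and the 18 genes past the test start at rank 15.

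Gm42047 was the most abundant member, at rank 211 of all genes in the tables. It is a predicted gene with 4 exon blocks on chromosome 8 (121833247 to 121841178, GRCm38, plus strand). Its CPM was 562, 534 and 483 in DMSO and 496, 469 and 453 in GSK126. The groups overlapped, and the log2 fold change of -0.16 (SE 0.06) did not pass the test (adjusted p = 0.145, edgeR quasi-likelihood test).

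2900097C17Rik, the mouse Norad gene, came second with 285, 298 and 305 CPM in DMSO and 300.3, 287 and 299.8 CPM in GSK126. Norad binds Pumilio proteins, which repress messenger RNAs. Its log2 fold change was 0 to 2 decimals (-0.0041, SE 0.0453). 1700020I14Rik, which holds Cyrano, the RNA that directs decay of a microRNA, had 247, 259 and 236 CPM in DMSO and 233, 234 and 254 CPM in GSK126. It too overlapped between groups (log2 fold change -0.04, SE 0.06, edgeR adjusted p = 0.653).

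Malat1, the speckle-associated nuclear RNA, had 228, 259 and 191 CPM in DMSO and 284, 287 and 271 CPM in GSK126. Each GSK126 library was above each DMSO library, yet the log2 fold change of 0.31 (SE 0.10) did not pass (edgeR adjusted p = 0.0910). It passed without DMSO replicate 2 (0.42, adjusted p = 0.0447) and with DESeq2 (adjusted p = 0.0405). Neat1, which shares its chromosome 19 neighbourhood and scaffolds paraspeckles, had 83.1, 69.0 and 66.8 CPM in DMSO and 90.8, 52.7 and 53.5 CPM in GSK126. Here 1 GSK126 library was above all others and the other 2 were below all others (log2 fold change -0.16, SE 0.21, edgeR adjusted p = 0.673). Of all tested genes, 11.1% passed, 5.87% higher and 5.18% lower, and of those at 10 CPM or more, 13.1% passed. The gene lists that follow were not tested against these shares. Of 34 tested paraspeckle protein genes, 5 were lower and 1 was higher, with a median log2 fold change of -0.12. Of 13 genes of nuclear speckle proteins, 5 were lower and none higher (median -0.15), all of them splicing factors or their partners. Srsf2, a serine- and arginine-rich splicing factor, had a log2 fold change of -0.38 (SE 0.05) and Pnn, a speckle protein, one of -0.26 (SE 0.04). Sfpq, a core paraspeckle protein, had one of -0.24 (SE 0.05). Among genes of nuclear RNA decay none of 17 passed, and of nonsense-mediated decay 1 of 14 did, Smg5 (-0.27, SE 0.05).

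The rest of the 10 most abundant members were 1810058I24Rik (103.2 CPM on average), AU020206 (101.1), Tmem250-ps (84.9), Gm43549 (52.7) and 4632404H12Rik (43.9). None of the 10 passed the test. 1810058I24Rik had a log2 fold change of 0.07 (SE 0.06), AU020206 one of -0.11 (SE 0.09), Gm43549 one of 0.23 (SE 0.08) and 4632404H12Rik one of -0.21 (SE 0.08). Tmem250-ps was nearest to the threshold, with 92.7, 95.6 and 91.7 CPM in DMSO and 80.3, 81.6 and 67.6 CPM in GSK126. Its groups did not overlap (log2 fold change -0.29, SE 0.08, edgeR adjusted p = 0.0536), and it passed without GSK126 replicate 3 (-0.21, adjusted p = 0.0430) and with DESeq2 (adjusted p = 0.0309). RefSeq annotates 1810058I24Rik and Tmem250-ps as protein-coding, as it does 14 of the 147 members it could be matched to, against 127 annotated as lncRNA and 6 as pseudogenes.

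Ranks changed when counts were divided by the gene length that the deposited FPKM implies. By FPKM the order began with Gm42047 (72.9), Norad (56.3), Gm10076 (47.6), Tmem250-ps (29.3), AU020206 (27.6), Malat1 (27.1) and 1700020I14Rik (25.2). Gm10076, a single exon block with an implied length of 767 bp, rose from rank 13 by CPM to rank 3. Neat1, with an implied length of 25516 bp, went the other way, from rank 8 to rank 54 (2.72 FPKM). These ranks rest on the implied lengths, which often differ from the annotated exon length.

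At the bottom of the range the threshold fell between close neighbours. Gm5535 (1.04 CPM), A330035P11Rik (1.03) and AL805899.2 (1.03) were just inside, and Gm45768 (0.999), Gm43055 (0.992) and Mkln1os (0.992) were just outside. A330035P11Rik had 9, 12 and 8 reads in DMSO and 17, 21 and 21 in GSK126. A further 822 lincRNA genes had at least 1 read and lay below the threshold, and 4611 had none.

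A list of known long noncoding RNAs held 18 members, of which 3 passed the test described below: Snhg20 and Pvt1 fell and Gm26917 rose. Of all tested genes, 11.1% passed, and Pvt1 and Gm26917 each lost their call in 5 of 10 settings other than leaving out a library. The whole list had 80 names, synonyms among them, of which 67 match a deposited symbol. Of these, 40 were tested, with 1 higher, 3 lower and a median log2 fold change of -0.26. The 14 tested snoRNA host RNAs described below are all on this list too. They hold 2 of its 3 falls, Snhg20 and Zfas1, so the results of the lists are not separate. Names were matched as symbols, which missed members under another symbol. Thus 1700020I14Rik, Oip5os1 in RefSeq, and Gm14005, Morrbid in RefSeq, are not among the 18. Gm14005 had a log2 fold change of -0.33 (edgeR adjusted p = 0.320). Xist had 14, 6 and 10 reads in DMSO and 0, 2 and 1 in GSK126, and the imprinted Meg3 had 7, 5 and 20 against 5, 5 and 0, so both stayed below the member threshold. Hotair and Miat had 0 reads in all libraries. Jpx, an activator of Xist, had a log2 fold change of -0.33 (SE 0.24), and Ftx, in the same X-inactivation centre, one of -0.18 (SE 0.19). Neither passed, and Ftx shares 633 bp of exon with Gm38020 on the same strand. Trp53cor1, also known as lincRNA-p21, had one of 0.15 (SE 0.11). The cardiac lineage RNA Bvht had one of -0.33 (SE 0.21) and Lncenc1 one of -0.25 (SE 0.23), and neither passed.

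GSK126 changed 18 of 213 tested members, 8 higher and 10 lower, by edgeR's quasi-likelihood test with Benjamini-Hochberg adjustment over all 13601 tested genes at 0.05. That is 8.45% of tested members, against 11.1% of all tested genes, with 3.76% against 5.87% for higher and 4.69% against 5.18% for lower. The share rose with level. Of members at 1 to under 10 CPM, 12 of 172 passed (6.98%, against 5.88% of all tested genes in that range), and of members at 10 CPM or more, 6 of 41 passed (14.6%, against 13.1%). The median standard error of a member's log2 fold change was 0.22, against 0.10 for all tested genes. The median log2 fold change was -0.04 for members and 0.00 to 2 decimals for all (-0.00048), with 97 members above 0 and 116 below. Groups of 3 libraries did not overlap in 61 members (28.6%), 28 of them higher and 33 lower, against 34.4% of all tested genes. At an unadjusted p below 0.05 there were 49 members. Only 4 of the 18 differed at least 2-fold, 3 higher and 1 lower.

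**Figure D2:**
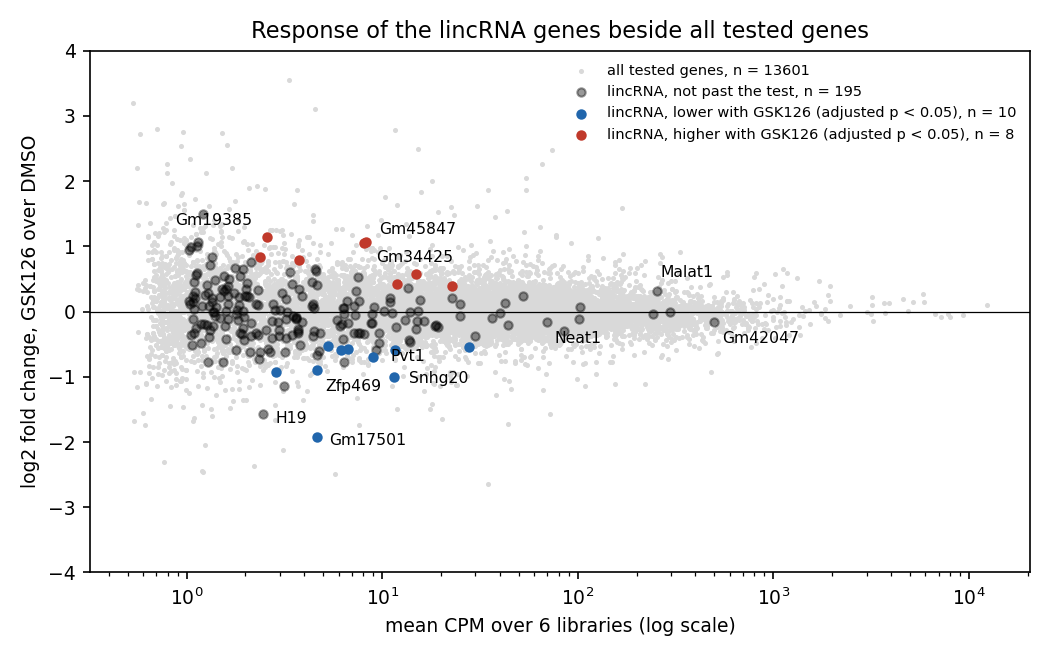
log2 fold change of GSK126 over DMSO (edgeR) against mean CPM over 6 libraries (log scale), each point a gene. The 213 tested lincRNA genes lie over the 13601 tested genes in grey, and the 18 past the test are coloured, from Gm17501 at -1.92 to Gm19385 at 1.14.

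Gm17501 fell most. It lies on chromosome 3 (145650312 to 145677580, plus strand), 331 bp from Cyr61, which encodes a secreted matricellular protein and is transcribed from the other strand. Gm17501 had 6.77, 8.95 and 6.25 CPM in DMSO and 2.67, 1.97 and 1.18 CPM in GSK126. All GSK126 libraries were below all DMSO libraries, with a log2 fold change of -1.92 (SE 0.28, edgeR adjusted p = 0.00824). Cyr61 itself had a log2 fold change of -0.11 (SE 0.18, edgeR adjusted p = 0.727). The difference between the pair was not tested.

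Snhg20, a snoRNA host gene by name that spans Mir6516, had 13.2, 16.6 and 16.1 CPM in DMSO and 8.77, 7.75 and 6.59 CPM in GSK126. The groups did not overlap, with a log2 fold change of -0.996 (SE 0.14, edgeR adjusted p = 0.00743). Its nearest coding gene, Sec14l1, moved the other way (0.22, SE 0.05, adjusted p = 0.0252).

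Zfp469 had 5.66, 6.04 and 6.47 CPM in DMSO and 3.44, 3.06 and 3.26 CPM in GSK126 (log2 fold change -0.90, SE 0.14, edgeR adjusted p = 0.00965). The tables label it lincRNA, whereas RefSeq annotates a protein-coding zinc-finger gene under this symbol. C030034I22Rik, on chromosome 17, had 47, 59 and 49 reads in DMSO and 28, 34 and 24 in GSK126 (log2 fold change -0.92, SE 0.19). Both groups were separate for each of these genes.

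Pvt1, a long noncoding RNA gene downstream of Myc that is often co-amplified with it in tumours, had 9.42, 13.4 and 10.6 CPM in DMSO and 6.74, 7.34 and 6.66 CPM in GSK126. Every GSK126 library was below every DMSO library (log2 fold change -0.69, SE 0.15, edgeR adjusted p = 0.0309). Myc, 47612 bp away, had a log2 fold change of -0.67 (SE 0.10, adjusted p = 0.00945). The call of Pvt1 held without DMSO replicate 1 (adjusted p = 0.0412) and ended without any other single library, with adjusted p up to 0.0910. It also ended in 5 of 10 other settings, namely without a low-count filter, with the replicate block and in all 3 fits to FPKM (adjusted p up to 0.131). The smallest log2 fold change, -0.30, was that on the log2(FPKM + 1) scale.

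The other members that fell had smaller changes. Mir670hg, which hosts miR-670 and miR-129, had 84, 81 and 92 reads in DMSO and 66, 60 and 61 in GSK126 (log2 fold change -0.53, SE 0.13, edgeR adjusted p = 0.0466). Gm14221 had a log2 fold change of -0.59 (SE 0.15), 5430416N02Rik one of -0.58 (SE 0.10), Gm10825 one of -0.58 (SE 0.12) and Gm20618 one of -0.54 (SE 0.10). Gm20618 was the most abundant member past the test, with 36.8, 30.1 and 32.1 CPM in DMSO and 23.5, 24.1 and 20.5 CPM in GSK126.

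Gm45847 had the smallest adjusted p among the members that rose. It lies on chromosome 7 (123031415 to 123068305, plus strand) and had 5.15, 5.26 and 5.66 CPM in DMSO and 12.1, 9.72 and 11.9 CPM in GSK126 (log2 fold change 1.06, SE 0.13, edgeR adjusted p = 0.00425). Its nearest coding gene, Rbbp6, had a log2 fold change of 0.08 (SE 0.05).

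Gm34425 and Gm19385 are neighbours on chromosome 9, on opposite strands (120869160 to 120873860 and 120861615 to 120866756). Gm34425 had 5.22, 4.62 and 5.96 CPM in DMSO and 11.0, 11.4 and 10.3 CPM in GSK126 (log2 fold change 1.05, SE 0.13, edgeR adjusted p = 0.00427). Gm19385 had 27, 17 and 22 reads in DMSO and 53, 49 and 52 in GSK126 (log2 fold change 1.14, SE 0.22, adjusted p = 0.0193). Both genes were higher in every GSK126 library. Their nearest coding gene, Ctnnb1, which encodes beta-catenin, had a log2 fold change of -0.20 (SE 0.11, adjusted p = 0.282).

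The other 5 members that rose changed less. Gm45869 had a log2 fold change of 0.83 (SE 0.20), 9330102E08Rik one of 0.57 (SE 0.11) and BC043934 one of 0.43 (SE 0.10). Gm11110 had 37, 41 and 35 reads in DMSO and 68, 70 and 68 in GSK126 (log2 fold change 0.79, SE 0.14, edgeR adjusted p = 0.0167). It shares 192 bp of exon with Tnfsf9 on the opposite strand, which encodes a costimulatory ligand and rose too (0.56, SE 0.14, adjusted p = 0.0440). The counting is not stated to use strand, so reads of this pair cannot be told apart and the value of Gm11110 is uncertain. Gm26917 lies in a ribosomal RNA repeat on chromosome 17 and had 258, 295 and 261 reads in DMSO and 407, 345 and 378 in GSK126 (log2 fold change 0.40, SE 0.10, adjusted p = 0.0401). Gm42418, from the same repeat, had a log2 fold change of 0.22 (SE 0.11, adjusted p = 0.255). Reads of such repeats can be split between copies, so both values are uncertain.

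**Figure D3:**
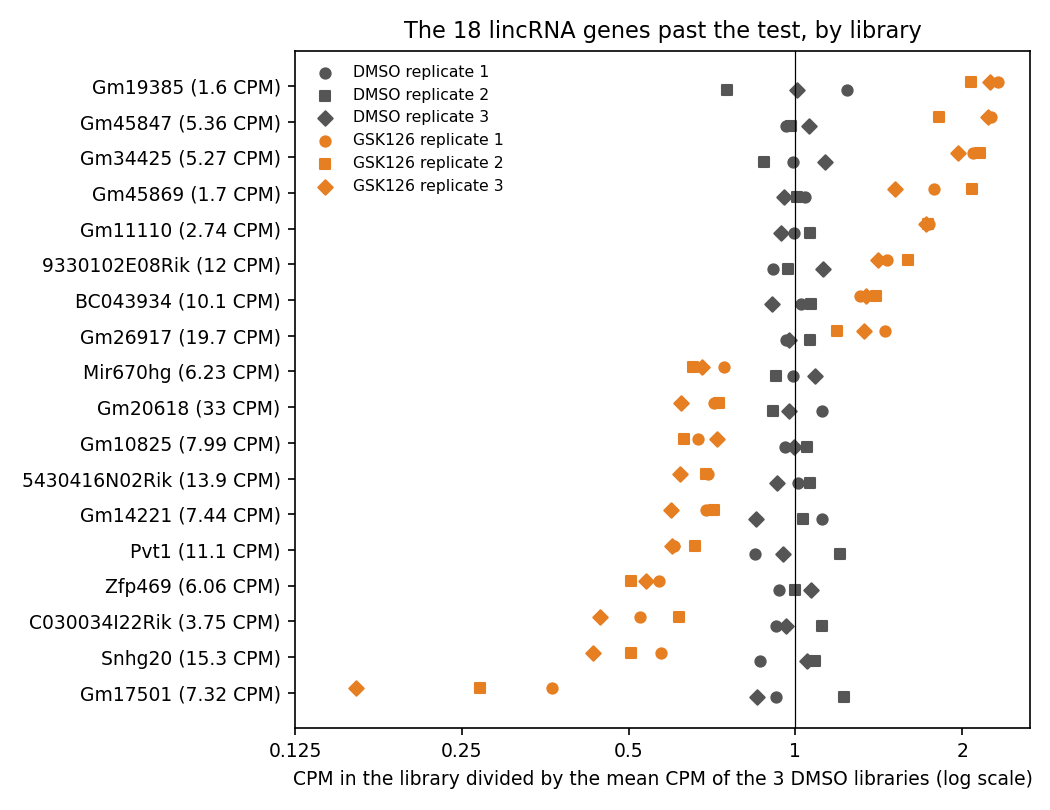
CPM of each library divided by the mean of the 3 DMSO libraries (log scale) for the 18 lincRNA genes past the test, with the DMSO mean CPM in brackets. In each gene the 3 GSK126 libraries, in orange, lie on 1 side of all 3 DMSO libraries, in grey.

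With 1 library left out at a time, 5 of the 18 calls held in each of the 6 fits, namely Gm17501, Snhg20, Zfp469, Gm45847 and Gm34425. BC043934, Gm14221 and Mir670hg lost their call in all 6. Each of the other 10 lost it in 2 to 5 fits, with adjusted p up to 0.132 for Gm26917, and no log2 fold change of the 18 changed sign. Gm19385 lost it without DMSO replicate 2 or 3 and without GSK126 replicate 1 or 2 (adjusted p up to 0.0672). The number of members past the test was 7, 7 and 8 without DMSO replicates 1, 2 and 3 and 6, 11 and 13 without GSK126 replicates 1, 2 and 3.

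Host RNAs of snoRNAs are spliced noncoding transcripts whose introns carry snoRNAs, which guide modification of ribosomal RNA, and their spliced RNAs are often removed by nonsense-mediated decay. Of 14 tested host RNAs on the list, 2 fell and none rose, Snhg20 and Zfas1 (log2 fold change -0.49, SE 0.11, edgeR adjusted p = 0.0320), and 12 did not pass. Of all tested genes, 11.1% passed, with 5.18% lower. Zfas1 lost its call without any 1 of 5 libraries, GSK126 replicate 1 being the exception (adjusted p up to 0.108), and in 5 of 10 other settings. The list's median log2 fold change was -0.36, against 0.00 to 2 decimals for all tested genes. Of its genes, 5 are members. Snhg12 had 159, 138 and 165 reads in DMSO and 115, 136 and 100 in GSK126 (-0.47, SE 0.14, adjusted p = 0.0777). Snhg6 had 274, 300 and 251 reads in DMSO and 253, 328 and 165 in GSK126, Snhg10 a log2 fold change of -0.33 (SE 0.26), and Epb41l4aos 44, 55 and 60 reads in DMSO and 43, 52 and 14 in GSK126. The last of these was low in GSK126 replicate 3 alone.

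Summed over the 5 members, host RNAs made up 50.5, 53.6 and 53.2 CPM in DMSO and 38.8, 45.0 and 27.5 CPM in GSK126. Over all 18 host RNAs of the tables the sums were 324, 311 and 306 CPM in DMSO and 263, 261 and 211 CPM in GSK126. GSK126 replicate 3 was lowest in both sums. Messenger RNAs of ribosomal proteins share the 5′ terminal oligopyrimidine class with many host RNAs. Ribosomal protein genes, taken by symbol as above, summed to 14848, 15003 and 15289 CPM in DMSO and 14487, 14235 and 11959 CPM in GSK126. The part of that library's ribosomal protein share in the result was not tested. The sum over all host RNAs differed by -68.3 CPM between groups.

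**Figure D4:**
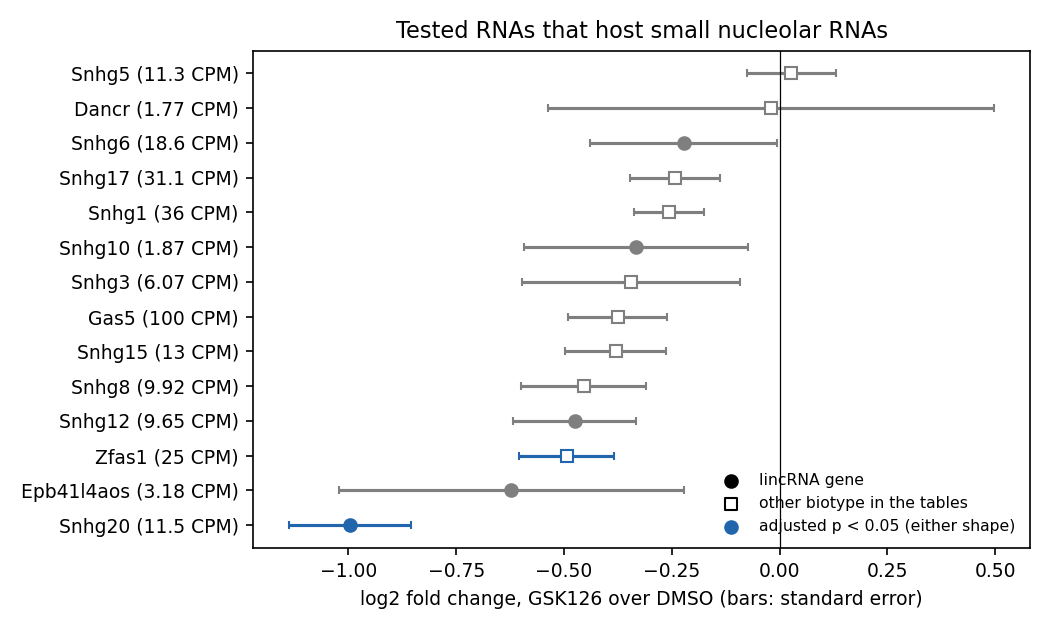
log2 fold change of GSK126 over DMSO with its standard error (edgeR) for the 14 tested snoRNA host RNAs, with the mean CPM in brackets. Of the 14, 13 lie below 0, and Snhg20 and Zfas1, in blue, passed the test, as did 11.1% of all tested genes.

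Of the 12 microRNA hosts, 11 were tested, and each had a log2 fold change below 0, as did 116 of all 213 tested members. Snhg20 and Mir670hg passed the test, which 11.1% of all tested genes did. Mir670hg lost its call without each single library and in 7 of 10 other settings. Mir17hg, which carries the miR-17-92 cluster, had 178, 178 and 168 reads in DMSO and 153, 152 and 162 in GSK126, separate groups with a log2 fold change of -0.24 (SE 0.09, edgeR adjusted p = 0.129). 6720427I07Rik, the host of let-7a-1, let-7d and let-7f-1, had one of -0.13, and C130071C03Rik, the host of miR-9-2, one of -0.47, with adjusted p of 0.563 and 0.266.

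In 3 members at least 1 library had 0 reads. AL805899.1, the miR-31 host, had 0, 12 and 185 reads in DMSO and 0, 1 and 0 in GSK126, and was the 1 member that did not enter the test. The imprinted growth regulator H19 had 20, 28 and 104 reads in DMSO and 20, 34 and 0 in GSK126 (log2 fold change -1.57, SE 0.93, edgeR adjusted p = 0.324). Gm3294, a miR-129 host, had 64, 60 and 55 reads in DMSO and 51, 0 and 34 in GSK126 (-1.14, SE 0.75, adjusted p = 0.373). AL805899.1 had most of its reads in 1 library, while H19 and Gm3294 had reads in the other 5 libraries. In DMSO 25 members, and in GSK126 29 members, spread by more than 2-fold between replicates of a group.

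**Figure D5:**
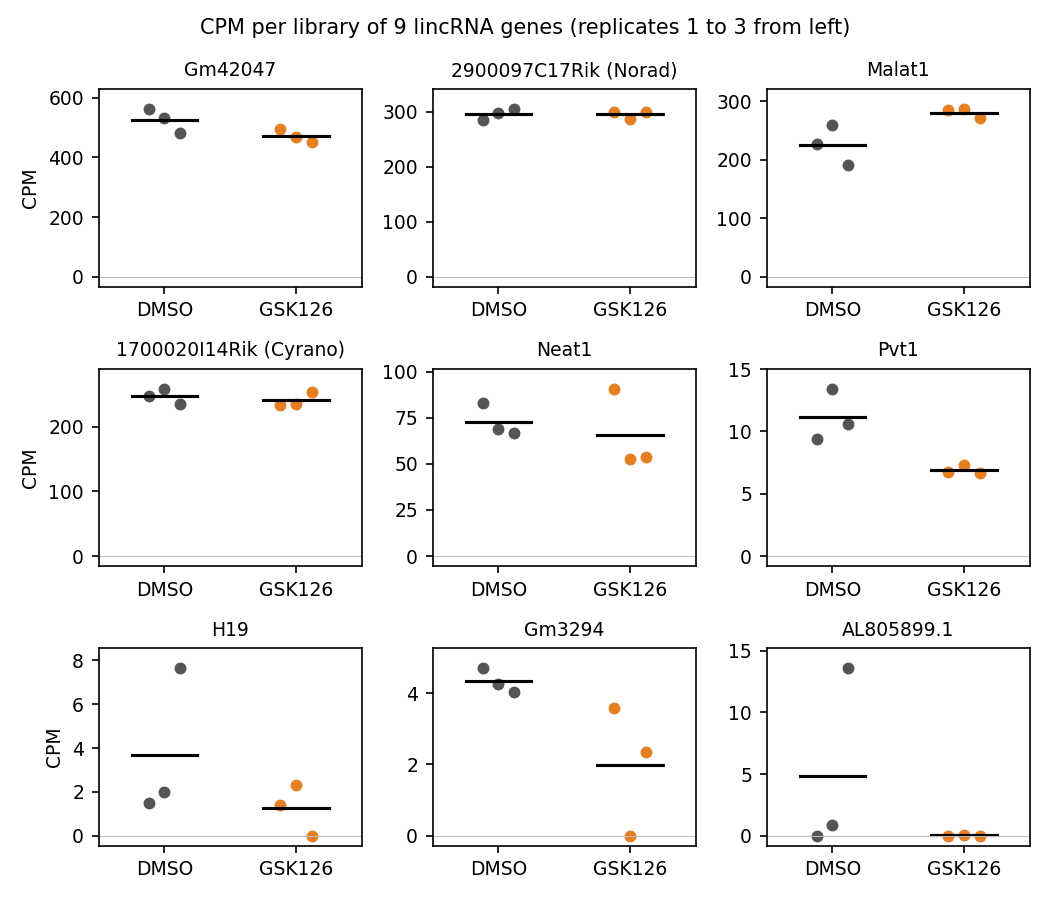
CPM in each library for 9 lincRNA genes, replicates 1 to 3 from left in each group, with the group mean as a line. Malat1 is higher in each GSK126 library and Pvt1 lower, Norad overlaps, and H19, Gm3294 and AL805899.1 each have a library at 0 reads.

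Genome neighbours gave little common movement. Of the 214 members, 130 lay within 10 kb of a protein-coding gene, among them 39 that overlapped the span of one. A further count, of members with a start within 2 kb of a coding gene's start on the other strand, was 50. Across 167 tested pairs of a member and its nearest coding gene, the log2 fold changes had a Pearson correlation of 0.17. Across 49 tested pairs with such close starts on opposite strands it was 0.25, with the same sign in 26. Both figures are descriptions over genes that share libraries. Of 14 called members with a tested nearest coding gene, 3 had a called neighbour, Sec14l1, Myc and Tnfsf9, and Myc and Tnfsf9 moved in the member's direction. Of all tested genes, 11.1% passed, and of those at 10 CPM or more, 13.1%. Myc kept its call without each single library, Sec14l1 lost it in 5 of these 6 fits and Tnfsf9 in all 6. Exons were shared with another gene in 29 members, 7 on the same strand and 22 on the opposite strand, and Gm11110 was the only called member among them.

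Other long noncoding classes at 1 CPM or more were called at lower shares than the 8.45% of tested lincRNA genes (8 higher and 10 lower of 213). Antisense genes had 2 higher and 4 lower of 141 tested (4.26%), processed transcripts 0 higher and 8 lower of 153 (5.23%), and bidirectional promoter RNAs 0 higher and 1 lower of 38 (2.63%), while protein-coding genes had 748 higher and 640 lower of 11334 (12.2%). Their median levels differ, at 2.12, 3.18 and 2.65 CPM for these noncoding classes, 3.18 CPM for tested lincRNA genes and 37.7 CPM for coding genes. The differences between classes were not tested.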

How the data were processed

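Raw gene counts and FPKM values of the same 6 libraries were deposited by the authors, with GRCm38 positions and biotypes per the file headers. The submitters' processing notes name CASAVA 1.8, HISAT2 and the builds GRCm38.p4 and mm10. Neither the counting tool nor its strand setting is given in the sources used here. The deposited FPKM was proportional to counts within each gene (ratio between libraries within 1.000048 over 12035 genes). Counts thus gave all main values, and FPKM only ranks per length and the gene lengths, which were calculated from counts and FPKM.

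CPM is counts over the library's summed counts. edgeR 4.0.16 (R 4.3.3; filterByExpr, TMM factors 0.994 to 1.01, quasi-likelihood F test, treatment as the only term) was fitted on all genes and adjusted by Benjamini-Hochberg over 13601 genes. It was also run on simulated counts in which genes of low counts were given no change, so recovery of changes at low counts was not examined. Alternatives used DESeq2 1.42.0 and limma 3.58.1. Replicates differed by more than sampling noise (chi-square over degrees of freedom 7.61 to 14.3).

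Exons and strands came from GENCODE M21, which has all 214 members, and microRNA genes and sequences from RefSeq (GRCm38.p6). An overlap counted when the partner had at least 10% as many reads. Named are the 10 most abundant members, those on the list of known RNAs, those past the test and the 3 on either side of the threshold. Other named members and all neighbours were chosen after their values were seen. Members, lists and tests were chosen with earlier results of these data known.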

Additional observations from a re-analysis of the deposited data

How the results depend on the processing

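The count of changed members (18, of which 8 higher and 10 lower) stayed within 1.5 times under size factors of DESeq2, library totals, a stricter filter, DESeq2, limma-voom, FPKM with either pseudocount and the 5 other member definitions. Without a filter on low counts it was 12, with 5 higher. The fit with the replicate block called 4 members, 2 higher and 2 lower, all among the 18. Whether replicate numbers pair the samples is not stated in the labels. Deviations from the group mean correlated at 0.0667, 0.0209 and -0.0420 for equal numbers 1 to 3, and from -0.102 to 0.0796 for unequal numbers. With 3 libraries per group, these values cannot decide whether the samples are paired. Over all genes the block called 408 of 13601, against 1503. With 1 library left out the members changed numbered 6 to 13, those higher 2 to 6 and those lower 4 to 7. Gm17501, Snhg20, Gm45847 and Gm34425 kept their call in all 16 alternative fits. None of the 18 changed sign. The difference between groups in the member share of counts ran from -0.0143 to -0.00353 percentage points over the alternatives, and each value was within 1 SD between replicates of -0.00891. The share itself, 0.293% in DMSO, was 0.241% without the most abundant member and 0.236% as a share of summed FPKM. The difference in summed host RNAs moved by less than 1 SD with 1 library left out, and was -42.7 CPM without Gas5 against -68.3 CPM with it. The host sums, the RefSeq-coding exclusion and the alternatives for genes that are not members were chosen after seeing the data. The median standard error of a member's log2 fold change was 0.25 at 1 to under 10 CPM and 0.10 at 10 CPM or more, against 0.22 and 0.08 for all tested genes in those ranges.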
